A study of Homo sapiens with 6 samples.

Results

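The genes described here shape mitochondria and report on their condition. They are 9 nuclear genes, *OMA1*, *DELE1*, *OPA1*, *MFN1*, *MFN2*, *DNM1L*, *FIS1*, *MFF* and *PINK1*, taken by symbol from the 17177 genes of the deposited expression table, and each of the 9 symbols had a row. *OMA1*, *MFN2* and *PINK1* lie on chromosome 1, *OPA1* and *MFN1* on chromosome 3, *DELE1* on 5, *FIS1* on 7, *DNM1L* on 12 and *MFF* on 2. The cells were NCI-H660, an established line of human neuroendocrine prostate cancer (NEPC), labelled as wild type, and all libraries come from this single line. On day 3, 3 libraries came from cells given pyrvinium pamoate (PP), an anthelmintic drug, and 3 from cells given PBS as the control. The study used PP as a candidate inhibitor of the RNA-binding protein ELAVL3, and the RNA-seq asked how the drug changed the transcriptome. The dose of PP for these libraries is not given in the sources used here. The study calls its RNA-seq samples independent, without saying whether they were separate cultures. The P values measure the spread between these libraries, which may be technical.

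Mitochondria continually fuse and divide. The mitofusins MFN1 and MFN2 join outer membranes and OPA1 joins inner membranes, while the dynamin-related GTPase DNM1L (also called DRP1) is recruited from the cytosol by receptors such as MFF and constricts the organelle. OMA1 is a stress-activated protease of the inner membrane that cleaves OPA1 when the membrane potential falls, and it also cleaves DELE1, which then leaves the mitochondrion and activates the kinase HRI (gene *EIF2AK1*) to start the integrated stress response. PINK1 is a kinase that builds up on depolarised mitochondria and marks them for removal by mitophagy. Much of this regulation is by protein cleavage, location and stability, none of which RNA-seq measures.

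The values are FPKM, a measure of fragments scaled by gene length and by the mapped total of the library, and can be compared between genes. Counts recovered from the FPKM values gave 29064253 to 32481171 counts per library. Each difference is the PP mean less the PBS mean of log2(FPKM + 1), a transform that understates the change of low genes, and by more the nearer a gene is to 1 FPKM or below. Differences were tested with limma over the 11726 genes with a mean FPKM of 1 or more. A gene was called at a Benjamini-Hochberg adjusted p under 0.05. The neuroendocrine markers *CHGA* and *SYP* were present in every library, at means of 43.3 ± 0.870 and 30.9 ± 1.46 FPKM with PBS and of 24.8 ± 1.09 and 26.1 ± 1.27 with PP (SD, n = 3). They come from a list of 7 such markers, which did not all fall with PP. *INSM1* was called higher, at a log2 difference of 0.21, *NCAM1* and *SOX2* were not called, and the others were called lower. The 5 stromal markers summed to 4.19 to 4.32 FPKM with PBS and 5.09 to 5.48 with PP, most of it *COL1A1*, and the 5 immune markers to 1.47 to 1.89 and 1.33 to 1.89. All libraries come from a single established line, and whether any of these marker transcripts came from other cells was not tested.

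With PP, *OMA1*, *OPA1*, *MFN2*, *PINK1* and *MFN1* rose, and *DELE1* and *DNM1L* fell. Neither *FIS1* nor *MFF* passed the test. Thus 5 of the 9 genes were called higher, where 38.1% of all genes tested were, and 2 were called lower, where 34.4% were. In 7 of the 9 genes the PP libraries lay entirely to 1 side of the PBS libraries, against 75.0% of all genes tested. In either direction 72.5% of all genes tested were called, so the share of called members was close to the background. No member passed the stricter cutoff of an unadjusted P under 0.001 with a log2 difference beyond 1, which 5.18% of all genes passed. Their differences ran from -0.55 to 0.48 with a median of 0.13, and the median over all genes tested was 0.02. The median size of the difference, without its sign, was 0.24 for the 9 genes and 0.27 for all genes. Each library pools many cells, so fewer transcripts per cell and fewer cells holding them cannot be told apart. FPKM is relative to the mapped total, so each rise or fall is relative, and a change in total RNA per cell is not seen.

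**Figure D1:**
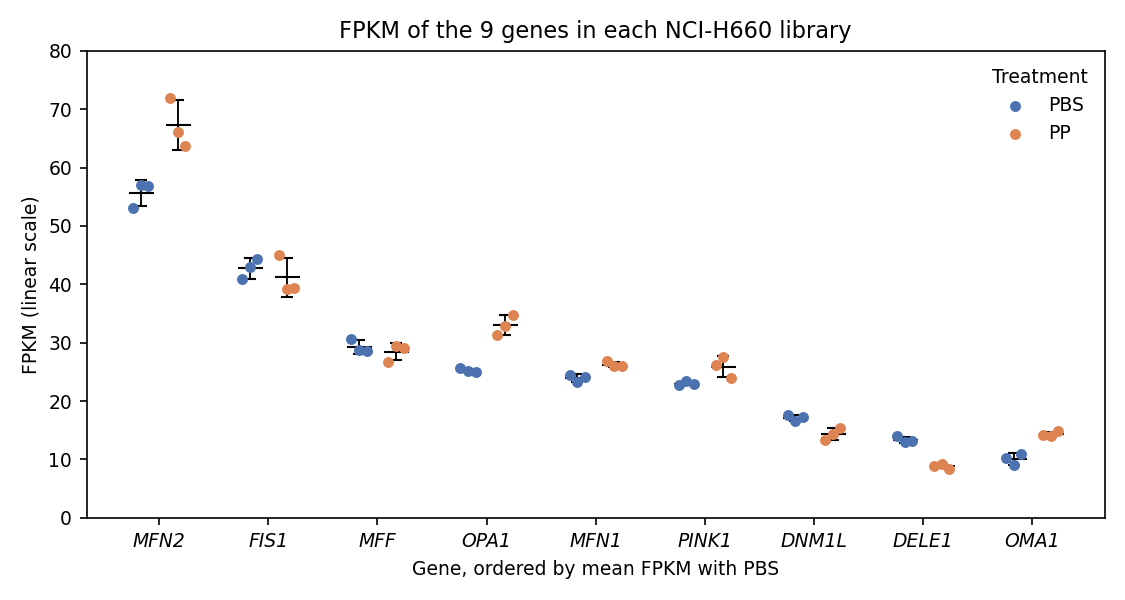
FPKM (linear vertical axis from 0) of each of the 9 genes in the 3 PBS and 3 PP libraries, 1 point per library, with the mean and SD of each group as a bar with whiskers. The PP points of *OMA1*, *OPA1*, *MFN2*, *PINK1* and *MFN1* sit above all their PBS points, those of *DELE1* and *DNM1L* sit below, and the points of *FIS1* and *MFF* overlap.

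The transcripts of the first and second genes of the relay that carries mitochondrial stress to the cytosol changed in opposite directions. *OMA1* (ENSG00000162600) had an FPKM of 10.2, 8.98 and 10.9 in PBS replicates 1, 2 and 3, and of 14.2, 14.0 and 14.8 in the PP replicates. All PP libraries were above all PBS libraries, and the rise was the largest of the 9 genes. The mean went from 10.05 ± 0.984 to 14.3 ± 0.435 (SD, n = 3), which is 42.7% higher, and the log2 difference was 0.48 (standard error 0.06, adjusted p = 7.91e-05 from limma). *OMA1* was also the member with the fewest counts, at 490 to 635 per PBS library and 787 to 904 per PP library.

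*DELE1* (ENSG00000081791), the substrate and messenger of OMA1, went the other way. Its FPKM was 14.0, 12.9 and 13.2 with PBS and 8.84, 9.20 and 8.44 with PP. The groups were far apart, with the lowest PBS library at 12.9 and the highest PP library at 9.20. The mean decreased by 33.9%, from 13.4 ± 0.545 to 8.83 ± 0.376 (SD, n = 3), and the log2 difference was -0.55 (standard error 0.05, adjusted p = 4.65e-06 from limma). This was the largest difference among the 9 genes, and 20.4% of all genes tested differed by more. Between 2340 and 2673 counts per PBS library and 1678 to 1717 per PP library stood behind it.

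The stretch upstream of each start site is shown for the first and second genes of the relay, for *OPA1*, and for *MFN1* and *FIS1*, which share a motif. Each is the last 100 bases before the start site annotated by RefSeq on GRCh38.p14, read 5′ to 3′ on the strand of the gene, and capitals mark a match to a motif of 8 letters.
OMA1, chr1:58546727-58546826, minus strand: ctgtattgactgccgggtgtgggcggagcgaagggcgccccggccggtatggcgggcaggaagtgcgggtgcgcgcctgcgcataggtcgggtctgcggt
DELE1, chr5:141923771-141923870, plus strand: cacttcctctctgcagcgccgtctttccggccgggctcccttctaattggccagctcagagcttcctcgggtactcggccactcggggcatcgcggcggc
OPA1, chr3:193593108-193593207, plus strand: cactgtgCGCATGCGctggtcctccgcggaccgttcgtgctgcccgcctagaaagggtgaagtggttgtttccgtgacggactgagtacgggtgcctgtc
MFN1, chr3:179347609-179347708, plus strand: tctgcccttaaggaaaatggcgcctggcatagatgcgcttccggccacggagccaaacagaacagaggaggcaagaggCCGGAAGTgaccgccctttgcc
FIS1, chr7:101245082-101245181, minus strand: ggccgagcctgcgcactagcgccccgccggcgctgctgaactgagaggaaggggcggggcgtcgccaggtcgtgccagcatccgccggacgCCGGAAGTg

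Motifs were searched on both strands of the 250 bases before each start site, and 8 of the 9 genes, all but *PINK1*, had such a window. *MFF* had 3 start sites and was matched if any of its windows matched. The shares over all genes are of single windows, so the matches of *MFF* are not like for like. The core of the site of NRF1, a factor known for switching on nuclear genes of mitochondria, is CGCATGCG and lay upstream of *OPA1*. It lay in no other member window and in 1.73% of the 35116 windows of all genes. The ETS motif CCGGAAGT lay upstream of *MFN1* and *FIS1* and in 3.42% of all windows. The composite motif bound by ATF4 with a C/EBP partner, TGATGNAA, was in none of the member windows and in 3.14% of all. The CRE motif TGACGTCA was likewise in none, against 1.65% of all, while its part TGACG was in those of *DELE1*, *OPA1*, *MFN1*, *MFN2* and *MFF*, and in 21.2% of all. A CCAAT box (CCAAT) was upstream of *DELE1*, *MFN1*, *DNM1L* and *MFF* (32.0% of all), and a GC box (GGGCGG) upstream of 7 members (42.6% of all). *DELE1*, which fell, and *MFN1*, which rose, both held the CRE part, the CCAAT box and the GC box. These matches are descriptions of letters, and binding was not measured.

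The 3 fusion GTPases rose together, by different amounts. *OPA1* (ENSG00000198836) had an FPKM of 25.6, 25.1 and 25.03 with PBS and of 31.4, 32.9 and 34.7 with PP. The PBS libraries were tightly grouped, and every PP library was above them. The mean rose by 30.7%, from 25.2 ± 0.326 to 33.0 ± 1.69 (SD, n = 3), with a log2 difference of 0.37 (standard error 0.04, adjusted p = 2.87e-05 from limma). Counts were 4773 to 5148 per PBS library and 6250 to 7386 per PP library.

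*MFN2* (ENSG00000116688), the outer-membrane GTPase that also tethers mitochondria to the endoplasmic reticulum, was the most abundant of the 9 genes. Its FPKM was 53.1, 57.1 and 56.8 with PBS and 71.96, 66.1 and 63.7 with PP, so the groups did not overlap. The mean was 55.7 ± 2.23 with PBS and 67.3 ± 4.24 with PP (SD, n = 3), a rise of 20.8%, and the log2 difference was 0.27 (standard error 0.05, adjusted p = 0.000687 from limma). Its paralog *MFN1* (ENSG00000171109) had 24.5, 23.3 and 24.1 FPKM with PBS and 26.8, 26.0 and 26.0 with PP. That rise was smaller, at 9.63%, with a log2 difference of 0.13 (standard error 0.04, adjusted p = 0.0139 from limma), although the groups still did not overlap. Without PBS replicate 2 the difference of *MFN1* was 0.11 and no longer called (adjusted p = 0.0637 from limma, and 0.0105 to 0.0637 over its alternatives).

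Of the 3 members on the fission side, only the GTPase itself was called. *DNM1L* (ENSG00000087470) had an FPKM of 17.5, 16.6 and 17.2 with PBS and of 13.3, 14.3 and 15.4 with PP. Every PP library lay below the lowest PBS library, and the PP libraries were spread more widely. The mean fell by 16.4%, from 17.1 ± 0.465 to 14.3 ± 1.07 (SD, n = 3), and the log2 difference was -0.24 (standard error 0.06, adjusted p = 0.00251 from limma). A gene on the opposite strand, *YARS2*, overlaps *DNM1L*; the mRNA library kit named in the labels keeps strand, but the strand setting of the counting is not given. *YARS2* was at 3.05 to 4.31 FPKM, and its log2 difference of 0.15 was not called (adjusted p = 0.146 from limma).

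*MFF* (ENSG00000168958), which recruits DNM1L to the outer membrane, had 30.7, 28.7 and 28.5 FPKM with PBS and 26.7, 29.5 and 29.1 with PP. *FIS1* (ENSG00000214253), a small tail-anchored outer-membrane protein that also binds the fission machinery, had 40.9, 43.0 and 44.4 with PBS and 45.0, 39.2 and 39.4 with PP. In both genes PP replicate 1 departed from the other PP libraries, downwards for *MFF* and upwards for *FIS1*, and the groups overlapped. The log2 difference was -0.04 for *MFF* (95% interval -0.15 to 0.07, adjusted p = 0.459 from limma) and -0.05 for *FIS1* (-0.18 to 0.07, adjusted p = 0.403 from limma). Those intervals leave out a change as large as the rise of *OPA1* or the fall of *DELE1*. Without PP replicate 1, *FIS1* was lower by a called difference of -0.12 (adjusted p = 0.0383 from limma, and 0.0383 to 0.782 over its alternatives), and *MFF* was at 0.00054 (adjusted p = 0.993).

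*PINK1* (ENSG00000158828), the mitophagy kinase, had an FPKM of 22.7, 23.4 and 22.9 with PBS and of 26.2, 27.6 and 23.97 with PP. Every PP library was above every PBS library, with the lowest PP library at 23.97 and the highest PBS library at 23.4. The mean was 23.0 ± 0.328 with PBS and 25.9 ± 1.82 with PP (SD, n = 3), 12.7% higher, with a log2 difference of 0.16 (standard error 0.05, adjusted p = 0.0155 from limma). The call rested on PP replicate 2, without which the difference was 0.12 (adjusted p = 0.0684 from limma, and 0.00195 to 0.0684 over its alternatives). The antisense transcript annotated across *PINK1* was not analysed here.

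**Figure D2:**
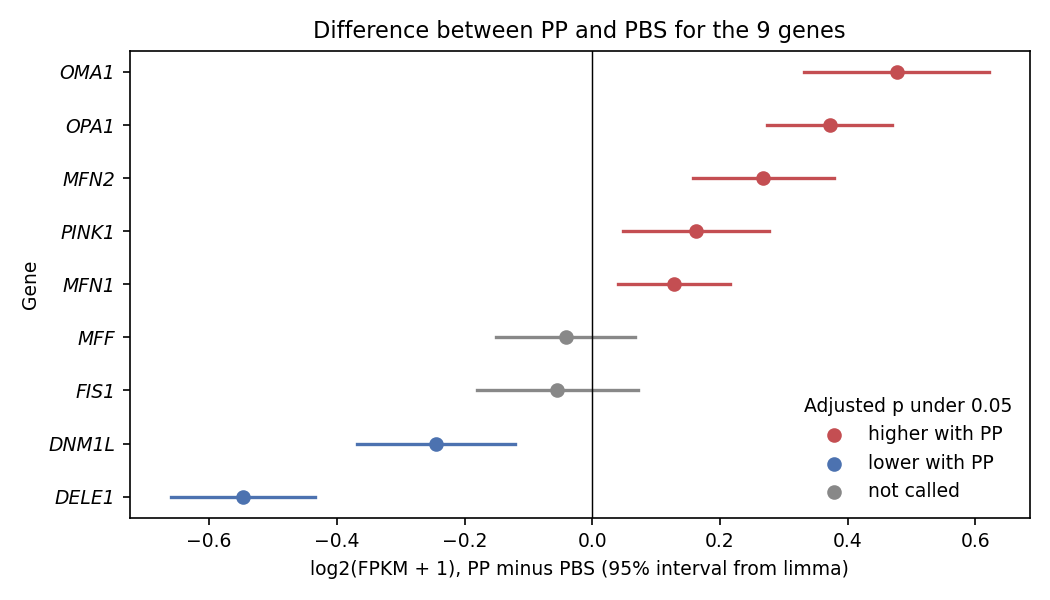
Difference between PP and PBS for each of the 9 genes, in log2(FPKM + 1) units on the horizontal axis, with the 95% interval from limma as a line and the colour giving the call at an adjusted p under 0.05. The points run from -0.55 for *DELE1* to 0.48 for *OMA1*, and only the intervals of *MFF* and *FIS1* cross 0.

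The order of levels was largely kept. With PBS it ran *MFN2*, *FIS1*, *MFF*, *OPA1*, *MFN1*, *PINK1*, *DNM1L*, *DELE1* and *OMA1* from highest to lowest, and only *MFN1* and *PINK1* overlapped with their neighbour. With PP, *OPA1* moved above *MFF* and *OMA1* moved from last to above *DELE1*, which then was last. In that group *MFF* overlapped with *MFN1*, *MFN1* with *PINK1*, and *OMA1* with *DNM1L*, at means of 14.3 FPKM each. Thus *DELE1* was above *OMA1* in all 3 PBS libraries and below it in all 3 PP libraries. At the level of all 6 libraries, 8.14% of the genes tested had a higher mean FPKM than *MFN2* and 46.9% a higher one than *OMA1*.

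Ratios of FPKM within a library compare 2 genes without any scaling between libraries. The ratio of *DNM1L* to *OPA1*, fission to inner-membrane fusion, was 0.685, 0.663 and 0.688 in the PBS libraries and 0.422, 0.436 and 0.443 in the PP libraries. All 3 PP ratios lay below the lowest PBS ratio, with a log2 difference of -0.65 (two-sided exact permutation test, p = 0.1, the smallest that 3 libraries against 3 can give, and 0.2 adjusted over 4 ratios). *DNM1L* was lower and *OPA1* higher in every PP library than in every PBS library. The separation of their ratio follows from this and is not a further result. *DELE1* against *EIF2AK1*, the kinase that it activates, gave 0.156, 0.149 and 0.153 with PBS and 0.0967, 0.0962 and 0.0865 with PP. These groups did not overlap either, with a log2 difference of -0.71 (exact permutation test, p = 0.1, adjusted 0.2). Here too *DELE1* was lower and *EIF2AK1* higher in every PP library than in every PBS library, which fixes the separation of the ratio.

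The other ratios overlapped between the treatments. *MFN1* to *MFN2* was 0.462, 0.408 and 0.423 with PBS and 0.373, 0.393 and 0.408 with PP, a log2 difference of -0.14 (exact permutation test, p = 0.2, adjusted 0.267). *OMA1* was also set against *YME1L1*, the other inner-membrane protease that cleaves OPA1. That ratio was 0.225, 0.205 and 0.238 with PBS and 0.213, 0.222 and 0.217 with PP, with a log2 difference of -0.03 (exact permutation test, p = 0.7, adjusted 0.70). Both proteases were called higher on their own, and a change in their ratio was not detectable with these libraries.

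**Figure D3:**
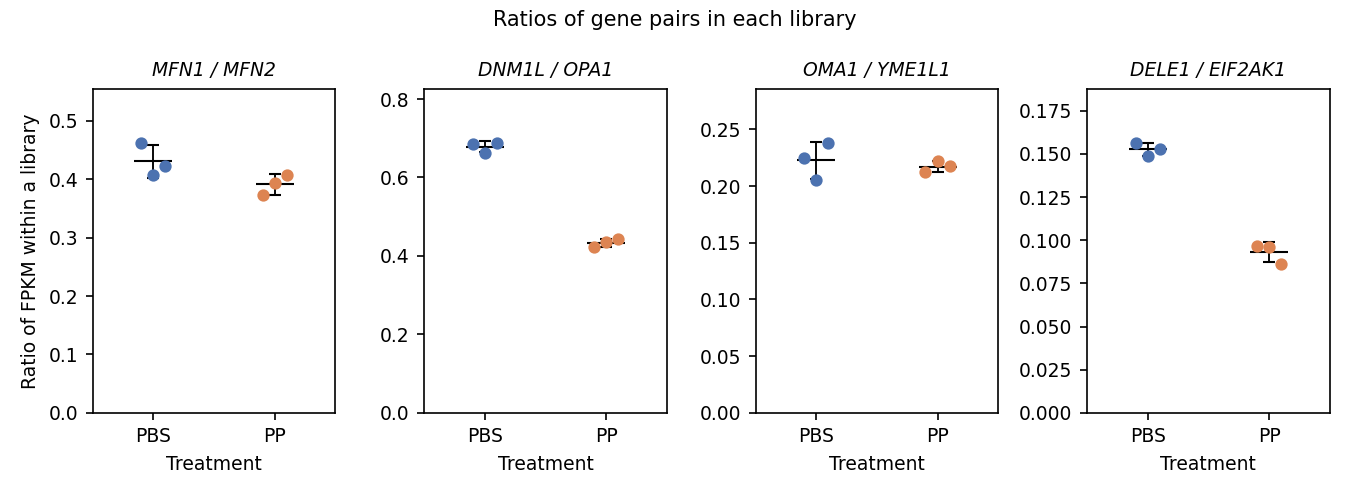
Ratio of FPKM of 2 genes within each library (linear axes from 0), 1 point per library with the mean and SD of the 3 libraries of each treatment. The *DNM1L* to *OPA1* and *DELE1* to *EIF2AK1* ratios are lower in all 3 PP libraries, and the *MFN1* to *MFN2* and *OMA1* to *YME1L1* ratios overlap between treatments.

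Genes that work with these 9 were described by 7 lists, whose members were chosen by function from general knowledge. Earlier results of these data were known when they were chosen, so the counts describe the lists and are not independent support. For each list the count of called members is to be read against the 38.1% higher and 34.4% lower over all genes tested. Of 10 genes of the relay and of the mitochondrial proteases, 7 were higher, 2 were lower and 1 was not called, with a median log2 difference of 0.27. *LONP1*, the matrix protease, had the highest difference of this list, from 87.4 ± 2.05 to 159 ± 8.15 FPKM (SD, n = 3; log2 difference 0.85). *YME1L1* rose by 0.54 and *PARL*, the rhomboid protease that cleaves imported PINK1, by 0.43. *EIF2AK1* went from 87.5 ± 1.59 to 94.9 ± 3.18 FPKM, a log2 difference of 0.12 (adjusted p = 0.0143 from limma). Without PBS replicate 2 or 3 it was 0.11 and not called (adjusted p = 0.0531 and 0.0517 from limma). The lower genes were *SPG7*, a subunit of the matrix-facing AAA protease, at -0.21 and *HTRA2*, an intermembrane-space protease, at -0.17. *HTRA2* was not called, at -0.17, -0.12, -0.14 and -0.16, without PBS replicate 2, PBS replicate 3, PP replicate 2 or PP replicate 3 in turn, nor at -0.17 with no level filter, so the call was lost under 5 of 15 alternatives.

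In the list of the other eIF2α kinases and the outputs of the integrated stress response, 13 of 15 tested genes were higher and 1 was lower, with a median of 1.27. All 12 tested outputs were higher, and the lower gene and the uncalled gene were kinases. *ATF4* rose by 0.65 on the log2 scale, *DDIT3* (CHOP) by 1.92 and *TRIB3* by 3.09. *ATF3* went from 19.1 ± 0.838 to 132.4 ± 3.63 FPKM (log2 difference 2.73). Of the kinases that can start this response, *EIF2AK3* (PERK) rose by 1.01, *EIF2AK2* (PKR) was lower at -0.20 and *EIF2AK4* (GCN2) at -0.06 was not called. *FGF21* was below the level filter, with 2 to 7 counts per PBS library and 20 to 33 per PP library. Its mean FPKM was 5.11 times as high with PP, but its log2 difference in the fit over genes of 0.1 FPKM or more was 0.53, a value held down by the added 1.

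The partners of fission were mixed, with 7 of 13 genes higher, 3 lower and a median of 0.20. *SPIRE1*, an actin nucleator with a mitochondrial isoform, went from 16.7 ± 0.0306 to 39.8 ± 0.970 FPKM (log2 difference 1.21) and was the list's only gene past the stricter cutoff. *MTFR2* rose by 0.58. *INF2*, a formin that assembles actin at fission sites, fell by 0.64, and *MTFP1*, an inner-membrane fission protein, fell by 0.32. The DNM1L receptors *MIEF1* (0.09) and *MIEF2* (0.20) were not called. Without PBS replicate 2, *MIEF2* was called at 0.30 (adjusted p = 0.0097 from limma). Among the 9 fusion partners 3 were higher and 2 were lower, with a median of 0.08. *PLD6*, a mitochondrial phospholipase, rose by 0.71 and *SLC25A46*, an outer-membrane carrier-family protein, by 0.57, whereas the prohibitins *PHB* and *PHB2*, inner-membrane scaffolds, were at -0.42 and -0.21.

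In the list of PINK1-dependent mitophagy, 9 of 16 tested genes were higher and 2 were lower, with a median of 0.19. *USP8* (0.90), *USP15* (0.80) and *USP30* (0.61), deubiquitinases linked to mitophagy, all rose. The receptor *SQSTM1* went from 290 ± 3.05 to 442 ± 10.7 FPKM (log2 difference 0.61). *TOMM7*, a translocase subunit that helps to hold PINK1 on the outer membrane, fell by 0.49, and the segregase *VCP* fell by 0.57. Of 7 genes of receptor-mediated mitophagy, 3 were higher and 2 were lower, with a median of 0.03. *BNIP3* was higher at 0.11 and *BNIP3L* at 0.03 was not called. *BCL2L13* rose by 0.34, and *FKBP8* and *NIPSNAP1* fell by 0.40 and 0.34. *FUNDC1*, at 0.19 (adjusted p = 0.0432 from limma), lost its call under 10 of 15 alternatives, among them the fits without PBS replicate 1, 2 or 3 (0.17, 0.19 and 0.21) and without PP replicate 1 (0.09). All 5 transport genes were called. *TRAK2* (0.80), *KIF5B* (0.43) and *RHOT1* (0.39) were higher, and *RHOT2* (-0.19) and *TRAK1* (-0.15) were lower, so the paralogs of both pairs differed in sign. Without PBS replicate 2, *TRAK1* was at -0.13 and not called (adjusted p = 0.0548 from limma).

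**Figure D4:**
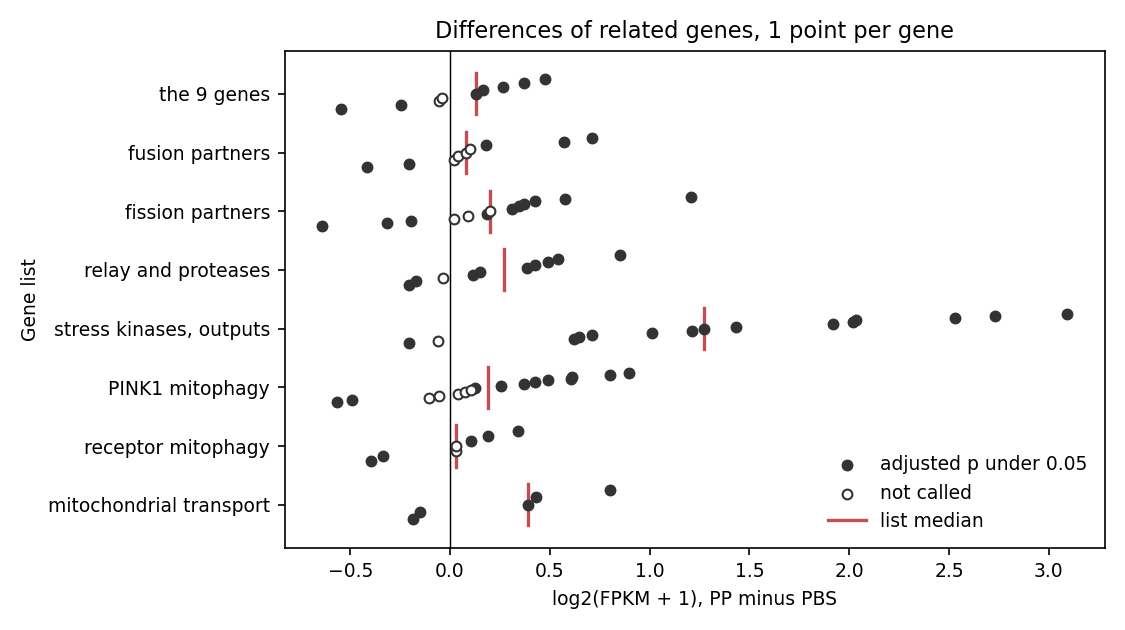
Difference between PP and PBS in log2(FPKM + 1) for each tested gene of the 9 members and of the 7 lists, 1 point per gene, filled where the adjusted p was under 0.05, with the median of each list as a red bar. The list of stress kinases and outputs reaches 3.09 with a median of 1.27, and every list, this one included, has genes on both sides of 0.

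Among the genes whose levels followed *DELE1* most closely over the 6 libraries were *CTNNA2*, *CDC42SE1*, *PBK* and *ATP6V0E2*, with Pearson's r of log2(FPKM + 1) from 0.9992 for *ATP6V0E2* to 0.9997 for *CTNNA2*. All 4 were lower with PP, with log2 differences of -1.14, -0.78, -0.67 and -0.68 in that order. *CTNNA2* was low, with a mean FPKM of 3.43 with PBS and 1.003 with PP, so its difference is understated on this scale. The 6 points fall into the 2 treatments, and 2097 of 11725 genes had an r above 0.95, so these values describe a shared step between treatments.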

How the data were processed

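RNA-seq of NCI-H660 cells (3 PP and 3 PBS libraries, grouped by the sample titles) was used. The authors deposited FPKM per gene symbol. The methods name mapping to hg19 with Bowtie, with RSEM, Cufflinks and HTSeq-count for quantification, while the labels' processing notes name GRCh38, fastp, HISAT2 and HTSeq. Which of them gave these values is not given in the sources used here. The methods state 2 samples per group and the labels 3, and all 6 were used.

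Whole counts were recovered from the steps of the FPKM values, within 0.01 of a count, for 17177 of 17177 genes. For the 268 genes at 0 in every library, and for genes above 0 in only 1 library, this held by construction and was no check. Their totals differed by at most 11.8% between libraries. Genes with a mean FPKM of 1 or more were tested on log2(FPKM + 1) with limma 3.58.1 in R 4.3.3 (eBayes with trend), with Benjamini-Hochberg adjustment over all of them. Steps were tested on simulated data. Gene identifiers are from GENCODE on GRCh37, and upstream sequences from RefSeq on GRCh38.p14. Alternatives varied the pseudocount, filter, scaling, trend, libraries, replicate block and the unit (limma-voom on recovered counts). The text names all members, fixed partners, the 2 highest and 2 lowest called genes of each list and the genes most like *DELE1*. Some genes that this rule or the marker lists take are not reported here. The members and lists were chosen with earlier results of these data known. Figures used matplotlib 3.10.9.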

Additional observations from a re-analysis of the deposited data

How the results depend on the processing

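The 15 alternatives comprised 6 fits that each left out a library and 9 other settings, and the calls of *OMA1*, *DELE1*, *OPA1*, *MFN2* and *DNM1L* held in all of them. Their log2 differences ranged over 0.41 to 0.53, -0.60 to -0.52, 0.34 to 0.41, 0.22 to 0.30 and -0.29 to -0.19 in that order. Leaving out a library gave 0.11 to 0.14 for *MFN1*, 0.12 to 0.22 for *PINK1*, -0.12 to -0.021 for *FIS1* and -0.068 to 0.00054 for *MFF*, and changed a call or a sign only as given beside each gene. The ratios were run under 8 alternatives. That of *OMA1* to *YME1L1* had log2 differences of -0.090 to 0.018 and changed sign in 1 of them, without PBS replicate 3. *BNIP3L* also changed sign, at -0.025 to 0.065 over the 15 alternatives, being below 0 without PP replicate 3. The cause was not tested.

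The count past the stricter cutoff with PP was 263 higher and 344 lower. It was 397 and 559 with limma-voom on recovered counts, and 531 lower with a pseudocount of 0.1. Median-ratio scaling moved the median of all genes from 0.02 to 0.01. Libraries with the same replicate number gave no sign of pairing (correlations of deviations -0.21, -0.01 and -0.13). With 3 libraries per group these values cannot show that the libraries were unpaired. With the replicate block 5 members were higher and 2 lower, as without it, and 58 in place of 59 of the related genes were called. A change of 0.1 on the log2 scale is near the limit of what 3 libraries per group showed here.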

Other observations

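The spread between replicates of the 9 genes was wider with PP in 7 of them, with a median coefficient of variation of 4.01% with PBS and 5.23% with PP. Over all genes tested it was wider with PP in 55.7%, and the medians were 4.41% and 4.89%. *OMA1*, at 9.79% with PBS and 3.03% with PP, and *MFN1*, at 2.70% and 1.84%, were the exceptions.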
